A study of Mus musculus with 4 samples.

Results

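Metallothionein and iron handling genes were followed in monocytes and macrophages of the mouse colon. The set had 7 genes, chosen by name from the 28692 genes measured. They were the metallothioneins Mt1 and Mt2, the ferritin subunit genes Fth1 and Ftl1, the iron exporter gene Slc40a1, the transferrin receptor gene Tfrc and the metal transporter gene Slc11a1. All 7 were present in the table.

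Metallothioneins are small, cysteine-rich proteins that bind zinc, copper and cadmium, and their genes are switched on by metal through the factor MTF1. Iron enters cells through the transferrin receptor, is stored inside ferritin cages built of heavy and light chains, and leaves through ferroportin, the Slc40a1 product. When iron is scarce, iron regulatory proteins bind hairpins called iron-responsive elements, blocking translation of ferritin and ferroportin and stabilizing the transferrin receptor message. Macrophages take part in body iron handling by digesting old red cells and returning their iron, and Slc11a1 moves metal ions out of the phagosome.

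The cells came from 4 male C57/Bl6N mice, 2 given diesel exhaust particles (DEP 11 and DEP 13) and 2 given phosphate-buffered saline (PBS 2 and PBS 3). Each gavage of the DEP mice carried 12 µg of particles suspended in 200 µL PBS, 5 times a week for about 6 months, and the control mice were gavaged with PBS alone. The labels give no age. Lamina propria cells carrying CD11b together with Ly6c2 or Cd64 had been sorted, and the cells of each mouse filled a separate well for 10x Genomics single-cell sequencing of transcript 3' ends. Each molecule carries a unique molecular identifier (UMI), so the values are molecules counted.

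Of 6954 cell barcodes, 4771 held at least 1000 UMIs and were kept: 1218 and 675 in DEP 11 and DEP 13, and 1296 and 1582 in PBS 2 and PBS 3. Total counts per mouse lay between 4489342 and 10293703 UMIs, with the fewest in DEP 13. Among the kept barcodes, 12 barcode names occurred in 2 mice. T cell, B cell or plasma cell markers at 5 or more UMIs per 10000 were found in 242 kept barcodes, called lymphoid here, which held 4.23% to 9.72% of a mouse's UMIs. Neutrophil markers (5 genes, 1 of them at 0) summed to 26.8 to 37.4 CPM. Levels below are UMIs per 1000000 UMIs summed over a mouse's barcodes (CPM), and n is the number of mice. The edgeR p-values set a difference against the spread between mice, moderated by the spread shared over all genes tested. The mice alone leave only 2 or 3 residual degrees of freedom. In comparisons of classes the spread is that of the class differences within mice. With 2 mice in a group the exact permutation test cannot give a p below 0.33. Fold changes used TMM scaling and so can differ from ratios of CPM.

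Barcodes were placed in classes by 2 marker genes. Ly6c2 marks blood-derived monocytes, C1qa marks macrophages, and Folr2 marks a group of resident macrophages. A barcode was high for a gene when its level lay above the median of the barcodes with a UMI of that gene, which was 2.58 UMIs per 10000 for Ly6c2 and 34.8 for C1qa. This gave 882 Ly6c2-high barcodes (median 4948.5 UMIs) and 2221 C1qa-high barcodes (median 7575 UMIs). Of the C1qa-high barcodes, 305 had a Folr2 UMI (Folr2+) and 1916 had none (Folr2-). Another 106 were high for both genes and 1562 for neither. Within 10% of the limit lay 136 barcodes for Ly6c2 and 233 for C1qa, so the classes are ranges of a marker and not cell types. The summed level of 9 monocyte markers was 5915 to 7227 CPM in the Ly6c2-high class and 624 to 936 CPM in the C1qa-high class. For 10 macrophage markers it was 11777 to 20142 CPM and 54297 to 63321 CPM, in the same order. These lists include the genes that set the classes. Plasma cells can express Ly6c2, and 57 Ly6c2-high barcodes were lymphoid, holding 8.0% to 21.0% of that class's UMIs in a mouse, against 1.31% to 2.04% in the C1qa-high class.

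Across the classes, 4 members were higher in C1qa-high than in Ly6c2-high barcodes: Mt1, Fth1, Ftl1 and Slc11a1. Mt2 missed the threshold, though it passed once the lymphoid barcodes were left out, and Slc40a1 and Tfrc did not reach the filter on low genes. In the Ly6c2-high class alone Mt2 did not reach that filter either. It was tested through the C1qa-high class, so its pass is no support for a class difference. The class comparison summed the UMIs of each class in each mouse and used edgeR's quasi-likelihood F test with the mouse as a block and Benjamini-Hochberg adjustment over 6887 genes. Of the genes tested, 38.7% were called, 19.2% as higher and 19.5% as lower in the C1qa-high class. The median log2 fold change was 0.44 over the 5 members tested and 0.02 over all genes. Between DEP and PBS mice, no member passed this test in all barcodes or in either class.

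**Figure D1:**
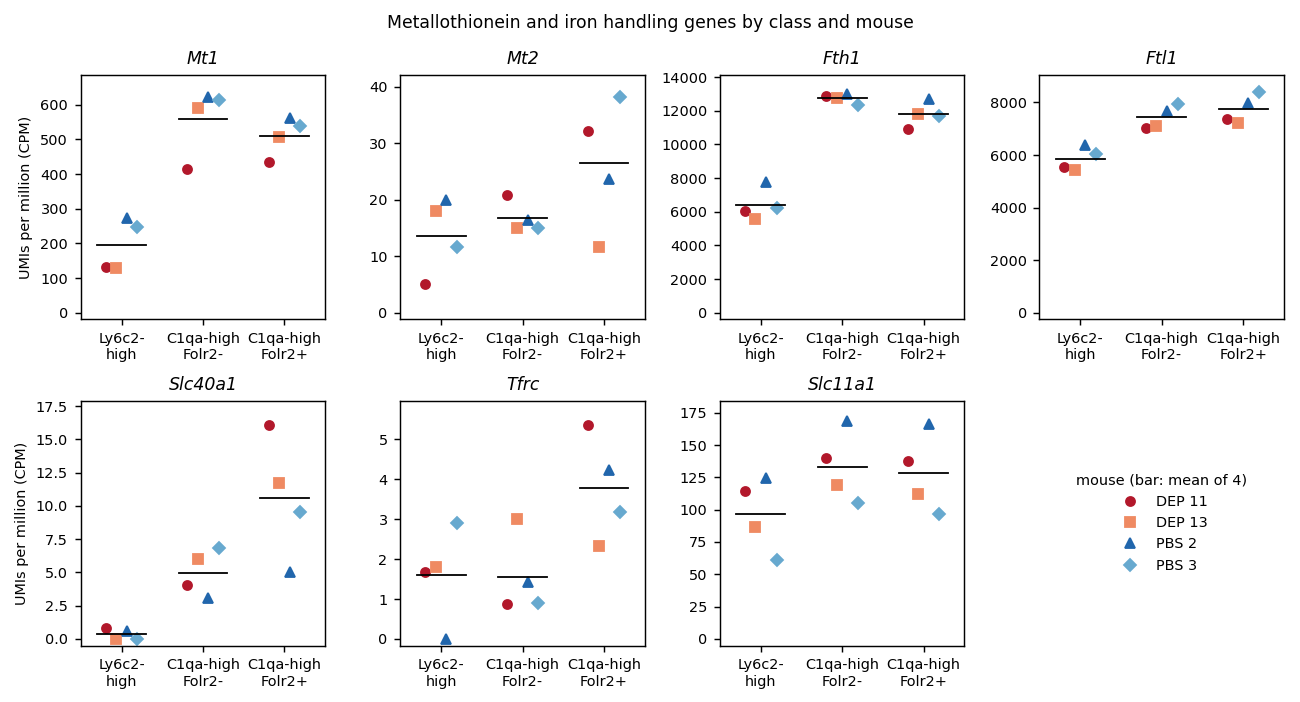
Level of each member in 4 mice (points) in Ly6c2-high, C1qa-high Folr2- and C1qa-high Folr2+ barcodes, in CPM on linear axes, with a bar at the mean of the 4 mice. Mt1 lay between 128 and 273 CPM in the Ly6c2-high class and between 413 and 624 CPM in the Folr2- barcodes, while Slc40a1 had 2 UMIs in all in the Ly6c2-high class.

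Mt1 (ENSMUSG00000031765, chr8:94179082-94180327, plus strand, mm10) and Mt2 (ENSMUSG00000031762, chr8:94172664-94173568, plus strand) are neighbours, with 5513 bases between them. Their transcripts aligned over 306 bases, of which 227 were identical (74.2%). MTF1 acts through metal response elements, whose core was searched as TGCACNC or TGCGCNC on both strands. The 250 bases before the RefSeq start of each gene, which differs from the GENCODE start given above, are shown because both metallothioneins carry cores there, printed in capitals (RefSeq, GRCm38.p6, plus strand, Mt1 at chr8:94178839-94179088 and Mt2 at chr8:94172368-94172617).
Mt1: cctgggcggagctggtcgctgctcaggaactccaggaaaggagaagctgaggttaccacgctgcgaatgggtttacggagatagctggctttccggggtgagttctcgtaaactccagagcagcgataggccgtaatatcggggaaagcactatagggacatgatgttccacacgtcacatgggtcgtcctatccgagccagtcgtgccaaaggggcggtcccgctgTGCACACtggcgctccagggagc
Mt2: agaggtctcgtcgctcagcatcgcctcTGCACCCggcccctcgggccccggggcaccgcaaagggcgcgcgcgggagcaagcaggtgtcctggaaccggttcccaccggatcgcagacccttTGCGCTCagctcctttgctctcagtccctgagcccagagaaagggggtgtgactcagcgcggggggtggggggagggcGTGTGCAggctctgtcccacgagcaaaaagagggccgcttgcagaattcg
The Mt1 window held 1 core and the Mt2 window held 3, while 21.4% of 32851 promoter windows of this length held at least 1. Further cores lay downstream of the windows, in the 5' leader of the GENCODE transcript that starts farthest upstream. There were 4 in the 229 bases of Mt1 and 3 in the 184 bases of Mt2. All 4 of Mt1 lay in the 159 bases before the start of another transcript, Mt1-202, for which they are upstream sequence and not leader. The leaders of Mt1-202, Mt1-203 and Mt2-202 held 0 cores. The window of Mt2 also held 1 antioxidant response element core (TGACNNNGC), found in 10.2% of all windows. Of the other members with a window, Tfrc had 2 metal response element cores in 1 of its windows, and Fth1, Ftl1 and Slc11a1 had none. These matches describe the sequence only.

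Mt1 had 13987 UMIs and was found in 3116 of the kept barcodes. Its level over all kept barcodes was 308 and 463 CPM in DEP 11 and DEP 13, and 496 and 490 CPM in PBS 2 and PBS 3. Both DEP mice lay below both PBS mice, but DEP 13 was nearer to the PBS mice than to DEP 11. The means were 385 ± 109 CPM (SD, n = 2) in DEP and 493 ± 4.22 CPM (SD, n = 2) in PBS. DEP over PBS gave a log2 fold change of -0.34 (SE 0.22), with an adjusted p of 0.997 by edgeR's quasi-likelihood F test and Benjamini-Hochberg adjustment. Its size turned on single mice, at -0.05 without DEP 11 and -0.72 without DEP 13. This test called 0 of 6609 genes (0%) in all barcodes, with 171 at an unadjusted p under 0.05, of which none was a member. DESeq2 called 4 genes and limma voom 0, again with no member among them.

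After every barcode was thinned to 1000 UMIs, the share of barcodes with a Mt1 UMI was 22.3% and 27.4% in DEP 11 and DEP 13, and 27.0% and 28.0% in PBS 2 and PBS 3. DEP 13 fell between the PBS mice. The mean DEP share minus the mean PBS share was -2.63 points, and the exact two-sided permutation test gave p = 0.667. Without 1 mouse the difference lay between -5.17 and -0.097 points. Before thinning, the shares were 53.9% to 74.7% and the difference was -12.4 points. In the lymphoid barcodes (median 5246.5 UMIs, against 5838 in all kept barcodes) the thinned share was 14.3% to 28.3%. The barcodes under 500 UMIs, where free RNA weighs most, held Mt1 at 128 to 371 CPM.

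Mt1 rose with the macrophage marker. It stood at 132 and 128 CPM in DEP 11 and DEP 13, and 273 and 247 CPM in PBS 2 and PBS 3 in the Ly6c2-high class. In the C1qa-high class it was 417, 576, 612 and 604 CPM, in the same order of mice. The lowest C1qa-high value lay above the highest Ly6c2-high value. C1qa-high over Ly6c2-high gave a log2 fold change of 1.45 (SE 0.11, adjusted p = 2.53e-09, edgeR), higher in 4 of 4 mice. In thinned counts a Mt1 UMI was found in 9.71% to 18.9% of Ly6c2-high and in 32.1% to 37.1% of C1qa-high barcodes, so the order held at equal depth. When the barcodes were divided into 5 equal bins by C1qa level, the mean of the 4 mice went from 210 ± 65.3 CPM (SD, n = 4) in bin 1, the lowest, to 566 ± 85.9 in bin 4 and 538 ± 97.8 in bin 5. DEP 11 was the lowest mouse in all 5 bins, and DEP 13 was above both PBS mice in bin 2 (446 CPM). That place rested on 1 barcode with 55 Mt1 UMIs. Without it and the other 2 barcodes of most Mt2 UMIs, left out after the data were seen, DEP 13 stood at 307 CPM in bin 2, between PBS 2 (283 CPM) and PBS 3 (335 CPM).

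**Figure D2:**
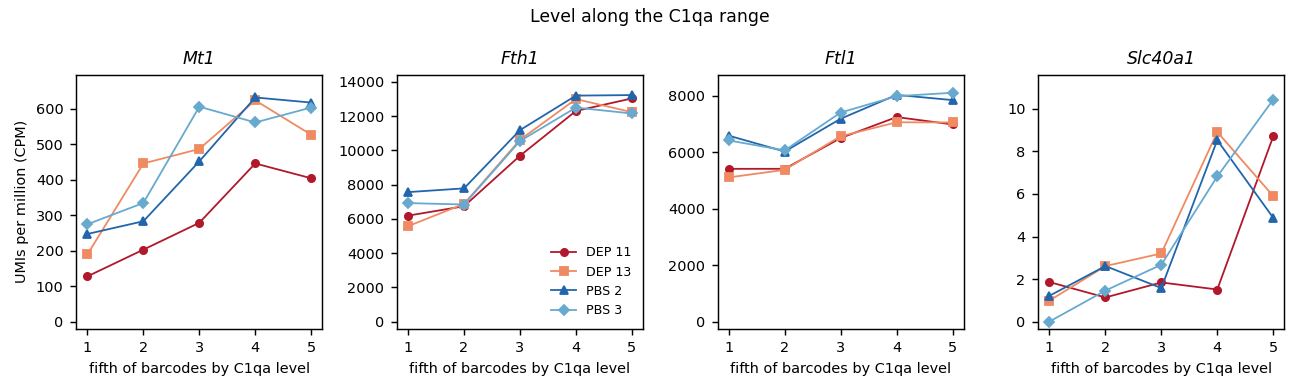
Level of Mt1, Fth1, Ftl1 and Slc40a1 in 5 equal bins of the kept barcodes ordered by C1qa level (bin 1 lowest), 1 line per mouse, in CPM on linear axes. All 4 genes stood higher in bins 4 and 5 than in bin 1 in the mean of the 4 mice, and Mt1 in DEP 11 ran below the other mice throughout.

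Within the Ly6c2-high class the DEP mice had about as much Mt1 as each other and less than either PBS mouse. The means were 130 ± 2.89 CPM (SD, n = 2) in DEP and 260 ± 18.7 CPM (SD, n = 2) in PBS, and the groups did not overlap. This was a log2 fold change of -1.01 (SE 0.20). Its unadjusted p was 0.000149, and the adjusted p of 0.287 by edgeR with Benjamini-Hochberg adjustment missed the 5% threshold. The test called 0 of 5773 genes (0%), with 170 at an unadjusted p under 0.05 and 0 by DESeq2 and limma voom. With no filter on low genes Mt1 was called, at an adjusted p of 0.00293. The adjusted p lay between 0.00293 and 1.0 over the 17 alternatives, while the fold change stayed between -1.09 and -0.69. Without the lymphoid barcodes the levels were 145 and 123 CPM in the DEP mice and 284 and 245 CPM in the PBS mice. The adjusted p was then 0.0793 (edgeR). The same order stood in the lymphoid barcodes themselves, at 162 and 224 CPM in DEP 11 and DEP 13, and 319 and 385 CPM in PBS 2 and PBS 3. It was therefore not particular to the Ly6c2-high class. Barcodes under 500 UMIs, at 128 to 371 CPM, also overlapped the Ly6c2-high levels. In thinned counts the groups overlapped, with shares of 11.7% and 9.71% in DEP 11 and DEP 13, and 18.9% and 11.5% in PBS 2 and PBS 3.

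Within the C1qa-high class the Mt1 means were 496 ± 113 CPM (SD, n = 2) in DEP and 608 ± 5.24 CPM (SD, n = 2) in PBS. DEP over PBS gave -0.28 on the log2 scale (SE 0.19, adjusted p = 1.0, edgeR). DEP 13 lay near the PBS mice and DEP 11 below them, and the value was -0.05 without DEP 11 and -0.56 without DEP 13. Here 2 of 7164 genes (0.0279%, 0.014% in each direction) were called, Apol7a and the heat shock gene Hspb1, named after their values were seen, and no member was among them. A fit over both classes tested whether the DEP difference itself differed between them. By edgeR's test the difference of the fold changes of Mt1 was 0.68 (SE 0.15, adjusted p = 0.0476), less negative in the C1qa-high class, and Mt1 was the only member among the 14 of 6887 genes (0.203%, with 0.16% higher and 0.0436% lower) called. This edgeR call sat at the threshold and was lost without DEP 13 (0.49, adjusted p = 0.701, with 1 DEP mouse left and the spread taken from the PBS mice), without the lymphoid barcodes (0.65, adjusted p = 0.261), with classes set on thinned counts (0.32, adjusted p = 1.0) and in 8 other alternatives.

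Cells are stressed while tissue is taken apart, and metallothioneins are among the genes that can answer. The summed level of 13 immediate early and heat shock genes was 8852 and 7299 CPM in DEP 11 and DEP 13, and 11954 and 9523 CPM in PBS 2 and PBS 3. Both DEP mice were below both PBS mice, as for Mt1. In the Ly6c2-high class the same sum was 8639, 7374, 13418 and 8971 CPM in that order. Its part in the Mt1 values was not tested.

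**Figure D3:**
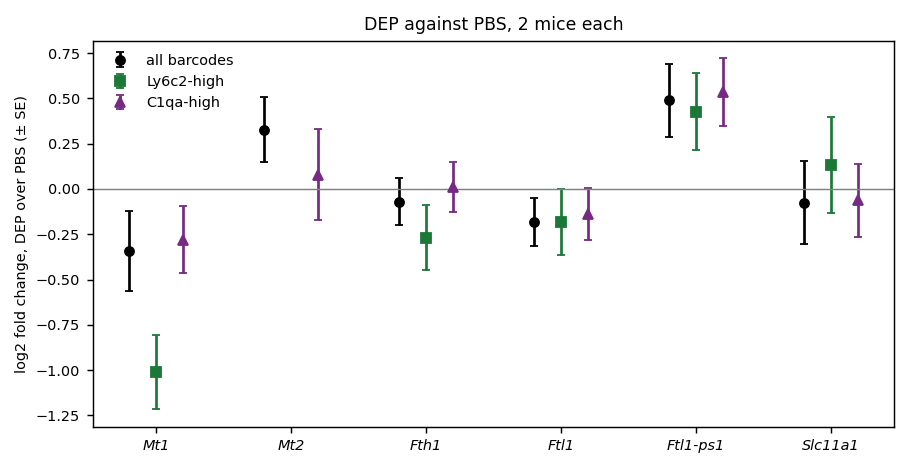
Log2 fold change of DEP over PBS with its standard error for members that passed the filter and for Ftl1-ps1, in all kept barcodes, the Ly6c2-high class and the C1qa-high class (2 mice per group). Mt1 in the Ly6c2-high class, at -1.01, stood farthest from 0, and no point passed the adjusted test.

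Mt2 had 569 UMIs in 239 of the 4771 kept barcodes. Its level was 20.1 and 21.6 CPM in DEP 11 and DEP 13, and 17.7 and 15.5 CPM in PBS 2 and PBS 3, so that both DEP mice were above both PBS mice. DEP over PBS gave a log2 fold change of 0.33 (SE 0.18, adjusted p = 0.997, edgeR). The order rested on 3 barcodes. A C1qa-high Folr2- barcode of DEP 11 held 50 Mt2 UMIs, a barcode of DEP 13 that was high for neither gene held 39, and a barcode of DEP 11 held 34. The third was lymphoid, with 41973 UMIs in all and plasma cell markers at 489 UMIs per 10000. Without these 3 barcodes, left out after the data were seen, Mt2 was 8.66 CPM in DEP 11 and 12.6 in DEP 13, below the unchanged 17.7 and 15.5 CPM of the PBS mice. Lymphoid barcodes held Mt2 at 25.8 to 74.2 CPM, from 87 UMIs, and barcodes under 500 UMIs at 0 to 48.4 CPM, from 10 UMIs. In thinned counts a Mt2 UMI was found in 0.985%, 0.889%, 1.47% and 1.14% of barcodes in the same order of mice.

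**Figure D4:**
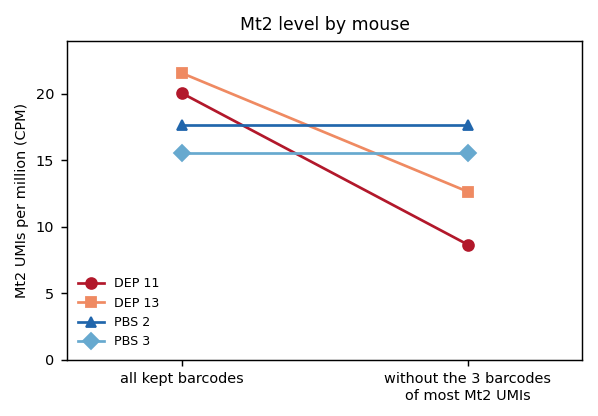
Mt2 level of each mouse in all kept barcodes and after the 3 barcodes with most Mt2 UMIs were left out, in CPM on a linear axis from 0. DEP 11 went from 20.1 to 8.66 CPM and DEP 13 from 21.6 to 12.6 CPM, while the PBS mice lost no barcode.

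By class, Mt2 was 5.0, 18.0, 19.95 and 11.7 CPM in Ly6c2-high barcodes of DEP 11, DEP 13, PBS 2 and PBS 3. In C1qa-high barcodes it was 22.3, 14.4, 17.9 and 17.9 CPM. The classes overlapped, and the log2 fold change of 0.42 (SE 0.26, adjusted p = 0.236, edgeR) did not pass. Of the 65 Mt2 UMIs of the Ly6c2-high class, 37 remained without its lymphoid barcodes, with most of the loss in DEP 13 and PBS 3. The level was then 4.01 and 4.17 CPM in the DEP mice and 17.7 and 3.69 CPM in the PBS mice, with only PBS 2 near its C1qa-high level. In these barcodes fibroblast markers (4 genes) summed to 127 CPM in PBS 2, against 3.01, 2.08 and 1.84 CPM in DEP 11, DEP 13 and PBS 3. Their part in the Mt2 level was not tested. The class fold change without lymphoid barcodes was 0.98, which passed with an adjusted p of 0.0106 by edgeR. The adjusted p lay between 0.0106 and 0.963 over 17 alternatives. Of the Ly6c2-high barcodes left, 0.452% to 3.86% in a mouse had a Mt2 UMI, under the 5% of the filter. Mt2 was thus tested through the C1qa-high class, and this pass is no support for a class difference. Inside the C1qa-high class, Folr2+ barcodes held Mt2 at 26.4 ± 11.5 CPM and Folr2- barcodes at 16.8 ± 2.73 CPM (SD, n = 4), a log2 fold change of 0.62 (SE 0.22, adjusted p = 0.121, edgeR). Folr2+ was the higher in 3 of 4 mice. Without the 3 barcodes named above that fold change was 0.93 with an adjusted p of 0.0397, and with classes set on thinned counts it was 2.03 with an adjusted p of 6.96e-06.

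Mt1 was also compared, as a description with no test, between barcodes with and without a Mt2 UMI. With a Mt2 UMI it was 816 and 857 CPM in DEP 11 and DEP 13, and 891 and 881 CPM in PBS 2 and PBS 3, against 277, 429, 456 and 459 CPM in barcodes with none. The order was the same in 4 of 4 mice. In thinned counts a Mt1 UMI was present in 48.5% of barcodes with a Mt2 UMI and 25.0% of those without. Barcodes with a Mt2 UMI were deeper, at a median of 8090 UMIs against 5736.5. The Mt2 UMI was read before thinning, so depth and class were not held equal. The dissociation genes summed to 8580 CPM with Mt2 and 9941 CPM without, and their part in the Mt1 values was not tested. Across barcodes within a mouse, Pearson's r of Mt1 and Mt2, on log2 of the level plus 1 and averaged over the 4 mice, was 0.23. The non-members most like Mt1 among 6597 genes were the complement genes C1qc (r = 0.34), C1qb (0.34) and C1qa (0.33), and those most like Mt2 were Retnla (0.14), Cd36 (0.10) and Fcrls (0.10). These correlations run over 675 to 1582 barcodes that share a library and differ in depth.

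Both ferritin genes were found in nearly all kept barcodes, with 328994 UMIs for Fth1 in 4770 barcodes and 218269 for Ftl1 in 4765. Barcodes of other kinds held them too. Fth1 was at 4736 to 5509 CPM in lymphoid barcodes and 4211 to 6662 CPM in barcodes under 500 UMIs, which overlaps its Ly6c2-high range, and Ftl1 was at 3257 to 3787 CPM and 2275 to 3508 CPM, below its Ly6c2-high range. Fth1 (ENSMUSG00000024661, chr19:9980598-9985098, plus strand) encodes the heavy chain, which oxidizes iron for storage. Ftl1 (ENSMUSG00000050708, chr7:45457944-45459884, minus strand) encodes the light chain, which helps the iron core form. Their transcripts, and those of Slc40a1 and Tfrc, carry iron-responsive elements, which are printed here because they link these 4 members. The elements were found in GENCODE M21 transcripts as a C, 5 bases, the loop CAGTGN and 5 bases that pair with the first 5. The 6-base loop is in capitals, T stands for the U of the RNA, and the positions are on mm10.
Fth1 (chr19:9982732-9982760, plus strand): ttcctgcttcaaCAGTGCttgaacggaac
Ftl1 (chr7:45459779-45459807, minus strand): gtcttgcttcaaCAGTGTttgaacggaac
Ftl1-ps1 (chr13:74406428-74406456, plus strand): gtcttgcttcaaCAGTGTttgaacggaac
Slc40a1 (chr1:45925465-45925493, minus strand): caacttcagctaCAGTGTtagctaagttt
Tfrc, element 1 (chr16:32631219-32631247, plus strand): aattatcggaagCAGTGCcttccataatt
Tfrc, element 2 (chr16:32631598-32631626, plus strand): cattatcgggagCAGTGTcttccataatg
Tfrc, element 3 (chr16:32631663-32631691, plus strand): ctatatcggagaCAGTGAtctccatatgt
Tfrc, element 4 (chr16:32631710-32631738, plus strand): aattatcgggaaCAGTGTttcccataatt
Fth1, Ftl1 and Slc40a1 each had 1 element, in the 5' UTR, and Tfrc had 4, in the 3' UTR. No such element was found in the transcripts of Mt1, Mt2 and Slc11a1. The counts of UMIs measure message and not translation.

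Fth1 followed the C1qa level as Mt1 did. In Ly6c2-high barcodes it was 6054 and 5578 CPM in DEP 11 and DEP 13, and 7773 and 6227 CPM in PBS 2 and PBS 3. In C1qa-high barcodes it was 12620, 12596, 12932 and 12275 CPM. The ranges were far apart, and the C1qa-high values differed little among mice. On the log2 scale the class difference was 0.95 (SE 0.05, adjusted p = 2.94e-11, edgeR). From the lowest to the highest C1qa bin the mean went from 6558 ± 865 to 12658 ± 549 CPM (SD, n = 4), with most of the step between bin 2 (7054 ± 486) and bin 4 (12744 ± 418). Along Ly6c2 it went the other way, from 11246 ± 490 CPM in barcodes with no Ly6c2 UMI to 7081 ± 1304 CPM in those above the median.

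Folr2+ barcodes held less Fth1 than Folr2- barcodes, and Fth1 was the only member called in that comparison, which called 303 of 7164 genes (4.23%), 1.58% higher and 2.65% lower. The Folr2+ levels were 10909, 11835, 12714 and 11706 CPM in DEP 11, DEP 13, PBS 2 and PBS 3, and the Folr2- levels were 12896, 12759, 12984 and 12357 CPM. Folr2+ was the lower in 4 of 4 mice, by a log2 fold change of -0.18 (SE 0.03, adjusted p = 0.000257, edgeR). Without the mouse as a block the adjusted p was 0.615. Mt1 had a similar fold change of -0.19 (SE 0.06) with an adjusted p of 0.0530, which missed the threshold and passed it in 7 of 18 alternatives. In DEP 11 the Folr2+ barcodes held more Mt1 (436 CPM) than the Folr2- barcodes (413 CPM), opposite to the other mice.

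Between DEP and PBS mice no Fth1 difference passed the test. Over all kept barcodes it was 10131 and 10095 CPM in DEP 11 and DEP 13, and 11329 and 10026 CPM in PBS 2 and PBS 3. PBS 3 was the lowest and PBS 2 the highest. In the Ly6c2-high class, by the levels above, both DEP mice were below both PBS mice. The log2 fold change was -0.07 (SE 0.13) in all barcodes, -0.27 (SE 0.18) in the Ly6c2-high class and 0.01 (SE 0.14) in the C1qa-high class. The adjusted p was at least 0.997 in each. Between the classes the DEP fold change of Fth1 differed by 0.29 (SE 0.07), which missed the threshold (adjusted p = 0.119, edgeR). This depended on the setting, since over 17 alternatives its adjusted p fell as low as 0.00536 (edgeR or limma voom).

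Ftl1 was higher in the C1qa-high class as well. It stood at 5542, 5449, 6384 and 6021 CPM in Ly6c2-high barcodes of DEP 11, DEP 13, PBS 2 and PBS 3. In C1qa-high barcodes it was 7077, 7132, 7735 and 7998 CPM. Every mouse was higher in C1qa-high barcodes, with a log2 fold change of 0.32 (SE 0.04, adjusted p = 1.18e-06, edgeR). Between Folr2+ barcodes, at 7746 ± 542 CPM, and Folr2- barcodes, at 7439 ± 442 CPM (SD, n = 4), the log2 fold change was -0.01 (SE 0.03, adjusted p = 0.967, edgeR).

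In each class compared, both DEP mice were below both PBS mice in Ftl1, and the opposite held for Ftl1-ps1, a near copy of the gene on another chromosome. Over all kept barcodes Ftl1 was 6424 and 6351 CPM in DEP 11 and DEP 13 and 7315 and 7243 CPM in PBS 2 and PBS 3. The log2 fold change was -0.18 (SE 0.13, adjusted p = 0.997, edgeR). Ftl1-ps1 (ENSMUSG00000062382, chr13:74399694-74407346, plus strand) was 1774, 2428, 1466 and 1546 CPM in the same order. Its log2 fold change was 0.49 (SE 0.20, adjusted p = 0.997, edgeR).

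The transcripts of Ftl1 and Ftl1-ps1 aligned over 910 bases, of which 906 were identical (99.6%), and their iron-responsive elements are the same 29 letters. Reads of these genes can therefore be divided between them by the counting, and the values of each alone are uncertain. The copy took 21.6% and 27.7% of the UMIs of the pair in DEP 11 and DEP 13, and 16.7% and 17.6% in PBS 2 and PBS 3. These shares barely moved between classes of a mouse, from 21.0% to 22.5% in DEP 11 over the Ly6c2-high and both C1qa-high groups. Added together, the pair stood at 8198, 8779, 8782 and 8789 CPM, so that only DEP 11 was apart, and the log2 fold change of DEP was -0.04 (adjusted p = 0.997, edgeR). In the C1qa-high class the sum gave 0.004 in place of -0.14. The class difference held in the sum, at a log2 fold change of 0.33 (adjusted p = 5.82e-07, edgeR). Across barcodes Ftl1 was most like Ftl1-ps1 (mean r = 0.74 over 4 mice), then Fcer1g (0.39) and the protease gene Ctsb (0.37), while Fth1 was most like Apoe (0.54), H2-Aa (0.53) and H2-Ab1 (0.52). Fth1 and Ftl1 had an r of 0.37.

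**Figure D5:**
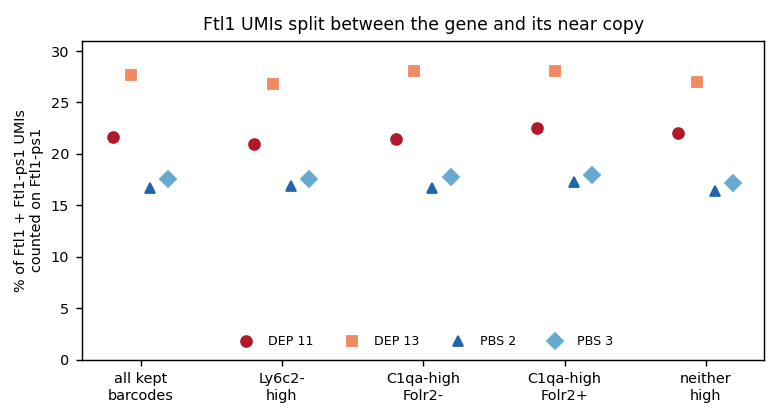
Percent of the UMIs of Ftl1 and Ftl1-ps1 together that were counted on Ftl1-ps1, by mouse, in all kept barcodes, 3 classes and the barcodes high for neither gene, on a linear axis from 0. Each mouse kept about the same share in each group of barcodes, with DEP 13 highest (27.7% in all barcodes) and PBS 2 lowest (16.7%).

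Slc40a1 (ENSMUSG00000025993, chr1:45908068-45926523, minus strand) encodes ferroportin, through which macrophages release iron. It had 135 UMIs in 102 barcodes and did not reach the filter of a UMI in at least 5% of barcodes. In Ly6c2-high barcodes there was 1 UMI in DEP 11 (0.833 CPM), 1 in PBS 2 (0.605 CPM) and none in DEP 13 and PBS 3, where 0 UMIs allow up to 5.39 and 2.18 CPM. In C1qa-high barcodes it was 5.71 and 6.99 CPM in DEP 11 and DEP 13, and 3.44 and 7.15 CPM in PBS 2 and PBS 3. The C1qa-high class was higher in 4 of 4 mice. The exact two-sided sign-flip permutation test over mice gave p = 0.125, the smallest it can give with 4. The pooled counts of 97 and 2 UMIs gave a ratio of 13.2 with a 95% interval of 3.55 to 110, which covers counting error only. With no filter on low genes, edgeR called Slc40a1 higher in the C1qa-high class (adjusted p = 1.27e-06) and did not call it between Folr2+ and Folr2- barcodes (adjusted p = 0.285).

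Within the C1qa-high class, Slc40a1 was set against Folr2. Folr2+ barcodes held 16.1 and 11.7 CPM in DEP 11 and DEP 13, and 5.07 and 9.52 CPM in PBS 2 and PBS 3, against 4.04, 5.99, 3.05 and 6.81 CPM in Folr2- barcodes. Folr2+ was higher within each of the 4 mice (exact permutation p = 0.125, the smallest possible), although the ranges overlapped between mice. The pooled ratio was 1.93 (95% interval 1.18 to 3.07, counting error only). The 106 barcodes high for both Ly6c2 and C1qa held 19 Slc40a1 UMIs, 15 of them in PBS 2, where 1 barcode alone had 11. Lymphoid barcodes held 3 Slc40a1 UMIs. Barcodes under 500 UMIs held none, which allows 18.3 to 48.4 CPM in a mouse, above the levels of the Ly6c2-high and C1qa-high classes. Over all kept barcodes the DEP mice, at 3.96 and 4.82 CPM, overlapped the PBS mice, at 4.37 and 4.25 CPM. The genes most like it across barcodes were Serpinb6a, Lag3 and Vcam1, each at r = 0.13, a weak likeness in counts this sparse.

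Tfrc (ENSMUSG00000022797, chr16:32608920-32632794, plus strand) encodes the receptor that brings transferrin-bound iron into the cell. It had 60 UMIs in 58 barcodes and did not reach the filter either. Over all kept barcodes it was 2.05 and 2.30 CPM in DEP 11 and DEP 13, and 1.49 and 2.07 CPM in PBS 2 and PBS 3. The groups overlapped, DEP 11 being below PBS 3. In the Ly6c2-high class there were 7 UMIs and in the C1qa-high class 31, a pooled ratio of 1.20 with a 95% interval of 0.520 to 3.24. Folr2+ barcodes held 5.36, 2.34, 4.22 and 3.17 CPM in DEP 11, DEP 13, PBS 2 and PBS 3, and Folr2- barcodes 0.865, 2.99, 1.42 and 0.908 CPM. Folr2+ was higher in 3 of 4 mice (exact two-sided sign-flip permutation p = 0.25), with a pooled ratio of 2.91 and a 95% interval of 1.26 to 6.36 for counting error only.

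Slc11a1 (ENSMUSG00000026177, chr1:74375195-74386062, plus strand), also called Nramp1, encodes a transporter of the phagosome membrane that takes part in resistance to intracellular bacteria. It had 3863 UMIs in 2192 barcodes. In Ly6c2-high barcodes it was 114 and 86.2 CPM in DEP 11 and DEP 13, and 125 and 61.2 CPM in PBS 2 and PBS 3, and in C1qa-high barcodes 140, 118, 168 and 104 CPM. The classes overlapped across mice, yet in CPM each mouse was higher in the C1qa-high class. In thinned counts a Slc11a1 UMI was found in 11.7%, 10.7%, 10.7% and 8.55% of Ly6c2-high barcodes, in the same order of mice. In C1qa-high barcodes it was 12.6%, 9.63%, 17.3% and 10.0%, so DEP 13 went the other way. The log2 fold change was 0.44 (SE 0.08, adjusted p = 0.000278, edgeR) with the mouse as a block, and the adjusted p was 0.0901 without it. Lymphoid barcodes held 21.2 to 72.8 CPM and barcodes under 500 UMIs 96.6 to 263 CPM, the latter from 83 UMIs.

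PBS 2 was the highest and PBS 3 the lowest mouse for Slc11a1 in the Ly6c2-high, C1qa-high, Folr2+ and Folr2- barcodes, with both DEP mice between them. This order did not hold in the lymphoid barcodes, where DEP 13 was lowest, or under 500 UMIs, where DEP 11 was highest. Over all kept barcodes the levels were 127 and 107 CPM in DEP 11 and DEP 13, and 159 and 90.4 CPM in PBS 2 and PBS 3. For DEP the log2 fold change was -0.07 (SE 0.23, adjusted p = 0.997, edgeR), and it was 0.32 without PBS 2 and -0.38 without PBS 3. Folr2+ and Folr2- barcodes held 128 ± 30.5 and 133 ± 27.6 CPM (SD, n = 4), with a log2 fold change of -0.12 (SE 0.09, adjusted p = 0.642, edgeR). Its closest genes were the lysosomal protease genes Ctsb (r = 0.16), Ctsc (0.16) and Lgmn (0.15), again a weak likeness.

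Of 58 other genes of metal, heme and iron handling, 36 could be tested between the classes. In the C1qa-high class 9 were higher and 9 lower, where 38.7% of all genes tested were called (19.2% higher and 19.5% lower), with a median log2 fold change of 0.06 over the list against 0.02 over all genes. The largest increases were in Blvrb, a biliverdin reductase gene (1.03), the iron transporter gene Slc11a2 (0.94), Ncoa4, which carries ferritin to the lysosome (0.84), the transferrin gene Trf (0.74) and the hemochromatosis gene Hfe (0.72). The largest decreases were in the heme exporter gene Flvcr1 (-0.86), the copper importer gene Slc31a1 (-0.67), the heme-sensing repressor gene Bach1 (-0.66), the mitochondrial iron importer gene Slc25a28 (-0.63) and the heme-hemopexin receptor gene Lrp1 (-0.49). Blvrb stood at 158, 140, 177 and 130 CPM in Ly6c2-high barcodes of DEP 11, DEP 13, PBS 2 and PBS 3, and at 320, 290, 330 and 319 CPM in C1qa-high barcodes. The classes of Blvrb did not overlap. Slc11a2, with 35 UMIs in the Ly6c2-high class, did not reach the filter there. It was tested through the C1qa-high class (254 UMIs), so its increase is no support for a class difference.

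Within the C1qa-high class, 3 of 39 tested genes of the list were higher and 2 lower in Folr2+ barcodes, where 4.23% of all genes tested were called (1.58% higher and 2.65% lower), with a median of 0.05 against 0.01 over all genes. Cp, which encodes the copper-carrying ferroxidase ceruloplasmin, had a log2 fold change of 1.17 (SE 0.28, adjusted p = 0.00898, edgeR). Its Folr2+ levels were 16.1, 58.5, 15.2 and 22.2 CPM and its Folr2- levels 8.07, 10.5, 11.4 and 9.31 CPM. Each mouse was higher in Folr2+ barcodes, and DEP 13 stood far above the others. Lrp1 (0.75) and Blvrb (0.34) were higher as well, while Hmox1, the heme oxygenase gene (-0.46), and Nfe2l2, which encodes the antioxidant factor NRF2 (-0.23), were lower.

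Between DEP and PBS mice no gene of the list passed, with 36 tested in all barcodes, 32 in the Ly6c2-high class and 39 in the C1qa-high class. At an unadjusted p under 0.05 there were 1, 2 and 1 of them, where 2.59%, 2.94% and 3.75% of all genes tested were, and Hmox1, named after its values were seen, was among them each time. Hmox1 was 107 and 176 CPM in DEP 11 and DEP 13, and 228 and 319 CPM in PBS 2 and PBS 3 over all kept barcodes. Both DEP mice were below both PBS mice, and each mouse differed from the next. Its log2 fold change was -0.95 in all barcodes, -1.05 in the Ly6c2-high class and -0.85 in the C1qa-high class, with adjusted p values of 0.997, 0.999 and 0.455 (edgeR, Benjamini-Hochberg). The second gene in the Ly6c2-high class was the copper transporter gene Slc31a2, at -0.62 (adjusted p = 0.999, edgeR).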

How the data were processed

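The authors deposited raw UMI counts of 28692 genes in 6954 barcodes. The submitters' processing notes name Cell Ranger, STAR 2.6.1a, R 3.5.1 and mm10, and the labels name the 10x 3' kit. The annotation and barcode filter were not found in the labels. The paper read beside these data names another deposit for its sequencing, so only its style and general design were used. Mice were read from barcode suffixes matching the sample titles. Levels were set per 10000 UMIs, and thinning drew 1000 UMIs per barcode. Barcodes high for both markers were kept apart, and no doublet caller was run. Counts were summed per mouse and class and tested with edgeR 4.0.16 (quasi-likelihood F test, TMM) in R 4.3.3, for genes above 1 CPM in at least 2 summed samples with a UMI in at least 5% of barcodes, at a Benjamini-Hochberg false discovery rate of 5%. DESeq2 1.42.0 and limma 3.58.1 were alternatives. The fits were tested on simulated counts. GENCODE M21 and RefSeq tables gave coordinates and sequences. Of the 58 metal and iron genes those called were named, or where over 10 were called the 5 with the largest changes in each direction, and the 3 non-members most like each member. The members and lists were chosen with earlier results of these data known.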

Additional observations from a re-analysis of the deposited data

Results flagged for a closer look

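The DEP minus PBS log2 fold change of Mt1 differed between the C1qa-high and Ly6c2-high classes by 0.68 (SE 0.15, adjusted p = 0.0476, edgeR's test of the interaction). It was flagged because the test of that difference passed. Both fold changes were negative, -0.28 and -1.01, and neither passed on its own.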

How the results depend on the processing

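With 2 mice per group and 135 and 60 UMIs for Slc40a1 and Tfrc, only large differences could be detected. Of 487 recomputed values of single members, 437 kept their direction and side of the threshold, 25 reversed, 12 newly passed and 13 no longer passed. The causes were not tested. Fits without 1 mouse leave a group of 1, which is assumed to vary like the other group. No paired analysis was possible because the DEP and PBS mice share no replicate number. Without the mouse as replicate block, the Folr2 comparison called 19 genes and 0 members.

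The DEP comparison in all barcodes called 4 genes with DESeq2, 119 with no gene filter and 8 to 35 without 1 mouse. In the Ly6c2-high class it called 47 genes and 1 member with no gene filter and 0 to 3 genes without 1 mouse. In the C1qa-high class it called 1 gene with DESeq2, 78 with no gene filter, 1 at 500 UMIs or more, 0 at the 75th percentile, 1 with thinned classes and 0 to 32 without 1 mouse. The class comparison called 1448 genes with thinned classes. It called 3 members without the replicate block and 5 with no gene filter, where Slc40a1 was added, and without lymphoid barcodes, where Mt2 was added. The Folr2 comparison called 132 genes with DESeq2, 474 with no gene filter and 119 at the 75th percentile. It called 2 members with limma voom, no gene filter, 2000 UMIs or more, the gene number and mitochondrial filters, no lymphoid barcodes, thinned classes, and without the 3 barcodes of most Mt2 UMIs or those named in 2 mice, and 1 to 2 without 1 mouse. The last 2 settings and the summing of Ftl1 and Ftl1-ps1 were chosen after seeing the data. The interaction called 9 genes with DESeq2 size factors, 0 with DESeq2, 34 with no gene filter, 7 at 500 UMIs or more, 7 with the gene number and mitochondrial filters, 4 without lymphoid barcodes, 6 at the 75th percentile, 0 with thinned classes, 9 without the 3 Mt2 barcodes and 1 to 42 without 1 mouse. Its member count was 0 in each of these but the setting with no gene filter, also 0 without barcodes named in 2 mice, and 0 to 1 without 1 mouse.

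Reversed log2 fold changes of DEP were, for Slc11a1, -0.38 to 0.32 without 1 mouse in all barcodes, -0.35 with thinned classes and -0.19 to 0.64 without 1 mouse in the Ly6c2-high class, and -0.33 to 0.28 without 1 mouse in the C1qa-high class. In the C1qa-high class Fth1 was -0.0236 with no gene filter, -0.00061 at the 75th percentile, -0.00063 with thinned classes and -0.0126 to 0.0313 without 1 mouse. Mt2 there was -0.82 at the 75th percentile, -0.74 with thinned classes, -0.58 without the 3 barcodes and -0.28 to 0.31 without 1 mouse, and Ftl1 summed with its copy was 0.00396. Mt2 between the classes was -0.0940 with thinned classes. Ftl1 between Folr2+ and Folr2- was 0.0028 at 500 UMIs or more, 0.0101 at the 75th percentile and 0.00046 when summed. In the interaction Mt2 was -0.27 at the 75th percentile, -0.70 with thinned classes and -0.45 to 2.04 without 1 mouse, Ftl1 was -0.0074 at the 75th percentile and Slc11a1 was 0.35 with thinned classes.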

Other observations

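Ferroportin (Slc40a1) was also read along the level of Folr2 itself, over all kept barcodes. The 4339 barcodes with no Folr2 UMI held 2.72 and 3.73 CPM in the DEP mice and 4.28 and 3.97 CPM in the PBS mice. The 216 barcodes with a Folr2 UMI at or below the median level held 5.98 and 5.48 CPM in the DEP mice and 4.77 and 6.79 CPM in the PBS mice, which overlapped. The 216 barcodes above the median Folr2 level held 24.9 and 20.8 CPM in DEP 11 and DEP 13 but 5.39 and 5.75 CPM in PBS 2 and PBS 3. The groups did not overlap in that last bin. It was looked at after the values were seen, holds few Slc40a1 UMIs and was not tested between DEP and PBS. With so few mice a lack of overlap cannot give a p below 0.33 by the exact permutation test. The share of all genes without overlap in this bin was not computed.

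The 106 barcodes high for both Ly6c2 and C1qa held Mt1 at 248 to 871 CPM over the 4 mice, from 270 UMIs, and Fth1 at 10761 to 15819 CPM. No Tfrc UMI was found in them.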
